A study of Drosophila melanogaster with 2 samples.

Results

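Of 2793 conservative binding sites of an eGFP-tagged nerfin-2 protein on the main chromosome arms of Drosophila melanogaster, 328 lay at genes with alternative promoters. A site was counted when the summit of its peak lay within 500 bp of transcription start sites (TSSs) of exactly 1 protein-coding gene, and when the annotated TSSs of that gene spanned more than 1000 bp. The 328 peaks belonged to 285 genes. Another 992 peaks lay at genes whose TSSs spanned at most 1000 bp, called compact promoters below, and 831 lay near TSSs of several genes. The choice used positions and the annotation only, and no signal beyond that which put a peak on the conservative list. Promoter use was not measured: a promoter is alternative here by annotation alone.

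The data came from chromatin immunoprecipitation with sequencing (ChIP-seq) on whole embryos aged 8 to 24 h. All embryos were of the strain nerfin-2-GFP, which carries a transgene for a nerfin-2-eGFP fusion protein, and per the description the fusion was precipitated with an antibody to GFP. A separate label gives the antibody as nerfin-2, which may be the target's name or an antibody to the protein itself, so it cannot be told apart from the labels whether untagged nerfin-2 was also precipitated. There were 2 biological replicates of this 1 group, with no other genotype, treatment or time and no untagged strain among the files analysed. Whole embryos hold many cell types, so binding in few cells and weak binding in many cannot be told apart. The deposited files are peak lists on genome build dm6, whose read depth is unknown, and the signal of a peak is the peak caller's own value. Intervals are at 95% and hold counting error alone, since neither peaks nor genes are replicates.

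A gene with alternative promoters starts transcripts at sites far apart, which can differ in first exon, in tissue and in time of use. In flies, promoters of broadly active genes often carry the DNA replication-related element (DRE), bound by the factor Dref. Promoters of regulated genes more often carry a TATA box, an Initiator or the GAGA element, bound by the GAGA factor Trl. The gene nerfin-2 codes for a zinc finger factor and is a relative of nerfin-1, which acts in early neurons.

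Of 7 motifs searched, the DRE had the largest excess at bound over unbound promoters of the same gene, as described below. To show the contrast, both promoters of 2 genes are given, from 90 bases before to 20 bases after the main TSS, 5′ to 3′ along the gene. They were read from the Release 6 assembly (dm6), and capitals mark the DRE, TATCGATA. The genes, from the arms whose sequence is printed here, are those with the strongest peaks whose bound promoter held a DRE and whose unbound partner held none. RhoGAPp190 encodes a GTPase-activating protein and su(w[a]) a regulator of splicing.
RhoGAPp190 bound promoter (chrX:17652542-17652652, minus strand): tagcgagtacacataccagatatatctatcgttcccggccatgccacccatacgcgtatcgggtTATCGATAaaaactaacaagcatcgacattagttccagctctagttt
RhoGAPp190 unbound promoter (chrX:17651290-17651400, minus strand): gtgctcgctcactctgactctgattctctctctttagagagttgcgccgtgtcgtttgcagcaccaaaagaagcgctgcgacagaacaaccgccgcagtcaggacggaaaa
su(w[a]) bound promoter (chrX:1033226-1033336, plus strand): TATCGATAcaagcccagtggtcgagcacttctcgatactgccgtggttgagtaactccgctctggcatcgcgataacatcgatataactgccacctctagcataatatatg
su(w[a]) unbound promoter (chrX:1012689-1012799, plus strand): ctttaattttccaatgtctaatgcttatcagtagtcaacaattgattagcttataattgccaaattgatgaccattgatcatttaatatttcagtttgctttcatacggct
In RhoGAPp190 the DRE began 26 bases before the TSS, and in su(w[a]) 90 bases before it.

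The strongest 2 peaks, at milt and kug, had no DRE within 50 bp of the summit and did hold a GAGA element. Their summit windows, 50 bases to each side, are shown with each GAGAG in capitals, again along the gene and from dm6. Both windows lie before the TSS of a downstream promoter, with the summit 127 bp from it in milt and 199 bp in kug.
milt summit (chr2L:7049095-7049195, plus strand): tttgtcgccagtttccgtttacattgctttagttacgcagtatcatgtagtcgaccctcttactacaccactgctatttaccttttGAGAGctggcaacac
kug summit (chr3L:20006335-20006435, plus strand): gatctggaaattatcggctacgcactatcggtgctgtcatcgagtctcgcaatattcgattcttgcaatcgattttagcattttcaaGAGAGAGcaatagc
The element stood once near one edge of the milt window. In kug, overlapping copies stood near the same edge.

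Signals at both of these pairs differed widely between promoters in both replicates. At RhoGAPp190, the bound promoter had a signal of 498.4 in the pooled list, 304.5 in replicate 1 and 185 in replicate 2, and the unbound one had 54.77, 25.95 and 26.17 in the relaxed lists. At su(w[a]) the values were 432, 213.6 and 221.1 at the bound promoter, against 25.24, 12.77 and 18.38. In su(w[a]) the bound promoter is the downstream one, 20537 bp from the other, and it starts 6 of the gene's 7 annotated transcripts. The relaxed lists hold weak calls that did not pass the authors' threshold, so an unbound promoter is one without a conservative summit, not one without signal.

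The members were weaker than peaks at compact promoters, as a description of the lists. Their pooled signal had a median of 115.1 and ran from 2.08 to 819.5, against a median of 131 at compact promoters and 145 near TSSs of several genes. In replicate 1 the median was 70.1 for members and 80.7 for compact promoters, and in replicate 2 it was 52.8 and 57.5. All 328 members had a relaxed call in both replicates, and 270 had the higher value in replicate 1, with a median ratio of 1.29. Spearman's rank correlation between the replicates was 0.759 across the 328 members and 0.807 across compact peaks. This is a description across peaks that share their libraries, and it has no p.

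**Figure D1:**
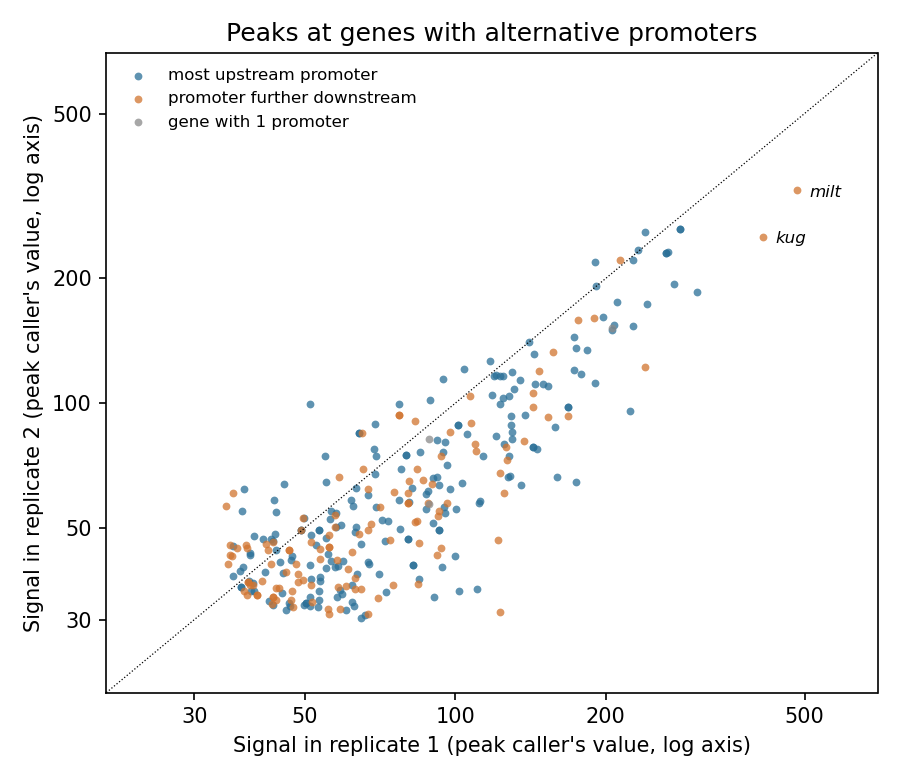
Signal of each of the 328 peaks in replicate 1 (x axis) and replicate 2 (y axis), the peak caller's value on log axes, coloured by whether the peak lies at the gene's most upstream promoter. Most points lie below the dotted line of equal values (270 of 328 were higher in replicate 1), and milt and kug, both at downstream promoters, stand at the upper end.

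The 12 strongest members spanned several kinds of gene. The highest signal, 819.5, was at milt, which encodes an adaptor that links mitochondria to the kinesin motor, with 482.2 in replicate 1 and 326.4 in replicate 2. The cadherin gene kug had 667.1, with 412 and 251.9. The kinase gene mnb had 563.2, with 282.1 and 262.7, while its other promoter, 12182 bp downstream, had relaxed signals of 20.1 pooled, 15.3 and 11.1. Each of the 3 peaks passed the threshold in both replicates, and milt was the highest in both, while kug and mnb changed places between them.

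The next peaks were at Gp150, which encodes a leucine-rich repeat membrane protein (499.9 pooled, 239.7 and 258.7 in the replicates), and at RhoGAPp190, given above. At bun, a member of the TSC22 family, the peak had 495.7 pooled, with 264.3 and 230. It lay at the most upstream of 7 promoters, and the other 6 had relaxed pooled signals between 26.1 and 73.7. The peak at CG30389 had 486.6, that at CG2924 481.4 and that at Snx27, a sorting nexin, 479.7. The translation factor gene NAT1 followed with 468.1, the transcription factor gene Sox14 with 452.5 and su(w[a]) with 432. Of these 12 peaks, 9 lay at the gene's most upstream promoter and 4 (Gp150, RhoGAPp190, CG30389 and su(w[a])) held a DRE. A GAGA element was held by those at milt, kug, Gp150 and Snx27. Of all 328 members, 206 lay at the most upstream of several promoters, 47 held a DRE and 46 a GAGA element. In the replicates, 9 of the 12 had the higher signal in replicate 1. The exceptions were Gp150, CG2924 and su(w[a]).

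The weakest members mostly overlapped stronger peaks. Of the 20 members with a signal under 30, 19 overlapped a stronger conservative peak, and 26 of all 328 members did so. Compact peaks were much alike in this, since 52 of 992 had a signal under 30 and 73 overlapped a stronger peak. The peak at rin, which encodes a stress granule protein, had a pooled signal of 22.6, below its replicate values of 35.1 and 40.8. A replicate value is that of the strongest overlapping call, so a peak that overlaps a stronger one can carry its neighbour's value. Of the 100 strongest peaks of the conservative list, 13 were members, beside 328 members among all 2793 peaks of that list. Start sites of non-coding genes lay within 500 bp of 26 of 328 member summits and 59 of 992 compact ones.

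The genes ranged from barely split to very long. The annotation holds 13968 protein-coding genes on the main arms, of which 1752 (12.5%) have TSSs that span more than 1000 bp. Of these, 1586 had a relaxed summit near their TSSs and no other gene's, and so could have been called, and 285 were called (18.0%). Among genes with a compact promoter, 927 of 7831 were called (11.8%). The number of start sites per gene differs between the kinds, and the shares were not compared by a test. The TSS span of the 285 genes had a median of 4112 bp, and that of all 1752 genes a median of 4289 bp.

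The widest spans were at CG32816 with 135925 bp, CG1677 with 120920 bp, jing with 111762 bp, bun with 85355 bp and CG42238 with 83197 bp. The zinc finger gene jing had a peak of only 83.8, with 51.2 and 34.0 in the replicates. Peaks at CG32816 (98.5), CG1677 (140.1) and CG42238 (127.8) lay between the members' quartiles of 85.6 and 184.2, while jing lay below them and bun above. Just inside the limit of span lay CG6923 with 1004 bp (signal 103.6) and hyx with 1006 bp (88.9), and just outside lay Trp1 with 973 bp (247.5) and l(2)k01209 with 970 bp (199.8). Just inside the limit of distance lay summits of 14-3-3zeta at 497 bp (80.9) and l(1)G0196 at 494 bp (72.9), and just outside lay pyd at 527 bp (275.8) and woc at 528 bp (211.4).

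Within a gene, start sites at most 500 bp from their neighbour were joined into 1 promoter. Of the 285 genes, 2 then had a single promoter, 166 had 2, 67 had 3 and 27 had 4. Another 10 had 5 promoters, 2 had 6, 7 had 7 and 4 had 8. The 285 genes had 786 promoters in all. Of these promoters, 306 held a member and 462 were unbound. The other 18 had a conservative summit within 500 bp that lay near TSSs of several genes or nearer to another promoter of the gene. Over all genes with alternative promoters, 306 of the 3291 promoters that could have been called held a member (9.30%).

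Binding fell mostly at the start of the gene. Of 240 genes with a member at only one of the most upstream and most downstream promoters, 180 were bound at the upstream one and 60 at the downstream one. The upstream share was 75% (Wilson interval 69.2 to 80.1, two-sided exact McNemar test, p 4.10e-15). Another 12 genes were bound at both and 31 at neither of these ends. In the list of replicate 1 alone the upstream share was 73.5%, and in that of replicate 2 it was 76.7%, both past the threshold.

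The gradient was steep after the first promoter and flat beyond it. Counted here were promoters with a relaxed summit nearest to them and near no other gene's TSSs. These were 1124 of 1747 most upstream, 826 of 1103 middle and 1337 of 1747 most downstream promoters. Of the 1124 most upstream ones, 192 held a member (17.1%, 14.99 to 19.4). In the middle 40 of 826 did (4.84%, 3.58 to 6.53), and most downstream 72 of 1337 (5.39%, 4.30 to 6.73). The middle and downstream intervals overlap, and neither reaches the upstream one. Upstream promoters also start more annotated transcripts than downstream ones, in 143 of the bound genes against 66 with fewer. In genes where both ends start equally many transcripts, a comparison added after seeing the data, 47 of 59 were bound upstream (79.7%, exact McNemar test, p 5.13e-06).

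**Figure D2:**
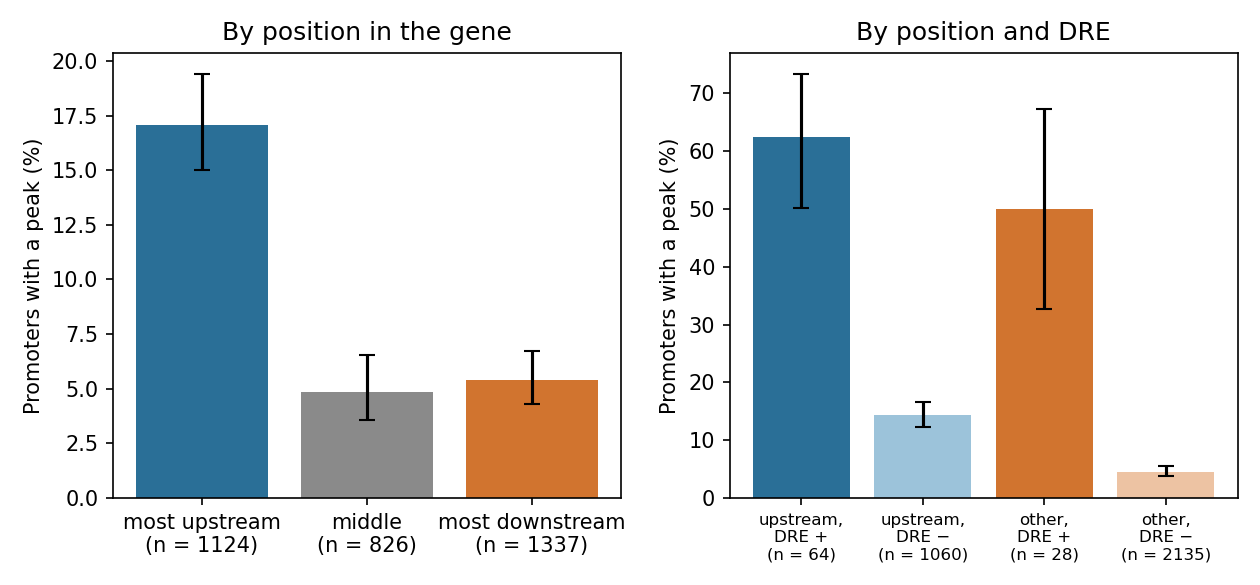
Left, percent of promoters with a peak by position in the gene. Right, the same for most upstream and all other promoters with (+) or without (−) a DRE within 100 bp of the main TSS. Bars show percentages of promoters that had a relaxed summit near no other gene's TSSs (n under each bar), and whiskers 95% Wilson intervals. Of these most upstream promoters, 17.1% held a peak, and with a DRE the share was 62.5% upstream and 50% elsewhere.

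Promoters with a DRE were bound far more often, at either position. The promoters counted are again those with a relaxed summit near no other gene's TSSs. Of 64 most upstream promoters with a DRE, 40 held a member (62.5%, 50.3 to 73.3), against 152 of 1060 without one (14.3%, 12.4 to 16.6). Of 28 other promoters with a DRE, 14 held a member (50%, 32.6 to 67.4), against 98 of 2135 without one (4.59%, 3.78 to 5.56). The intervals with and without the motif do not overlap at either position. Among promoters without a DRE, the upstream share was still the higher one.

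The same held when promoters were paired within a gene. In 267 genes, the promoter of the strongest member was set beside the unbound promoter that starts most transcripts, and 100 bp to each side of the main TSS were searched on both strands. A DRE stood at the bound promoter alone in 44 genes and at the unbound one alone in 1 gene. The share at the bound promoter was 97.8% of these genes (88.4 to 99.6, two-sided exact McNemar test, p adjusted over 7 motifs 1.83e-11). The exception was Tao, a kinase gene whose bound promoter had a signal of 147.4 and whose promoter 3, with the DRE, had a relaxed signal of 33.1. In htk both promoters held one. Tao and htk are named because they are the exceptions.

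As shares of the 267 pairs, 16.9% of bound and 0.749% of unbound promoters held a DRE, and 6.60% of all 17177 annotated promoters did. At the 45 bound promoters with the motif, it lay before the TSS in 36, and the median offset was −34 bp. Bound promoters were the upstream ones in 187 of the 267 pairs, at a median distance of 3014 bp from their partner. In the pairs with the bound promoter downstream, added after seeing the data, all 7 genes with a DRE at a single promoter had it at the bound one. With 7 genes the adjusted p was 0.109 by the exact McNemar test, short of the threshold.

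These 7 genes, named for that reason, were su(w[a]), aux, CG7741, Sur-8, Pfrx, TM9SF4 and Cdk4. At aux, which encodes auxilin, the uncoater of clathrin vesicles, the downstream promoter had 352.3 pooled, 175.9 in replicate 1 and 158.5 in replicate 2, and the upstream one 16.5, 4.62 and 11.5. At the cyclin-dependent kinase gene Cdk4 the downstream promoter had 114.1, 49.1 and 49.5, and the upstream one 31.0, 19.2 and 14.6. The Cdk4 peak overlapped no thresholded peak of either replicate. At Cdk4 the bound promoter starts 1 annotated transcript and the unbound one 4, the reverse of su(w[a]).

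**Figure D3:**
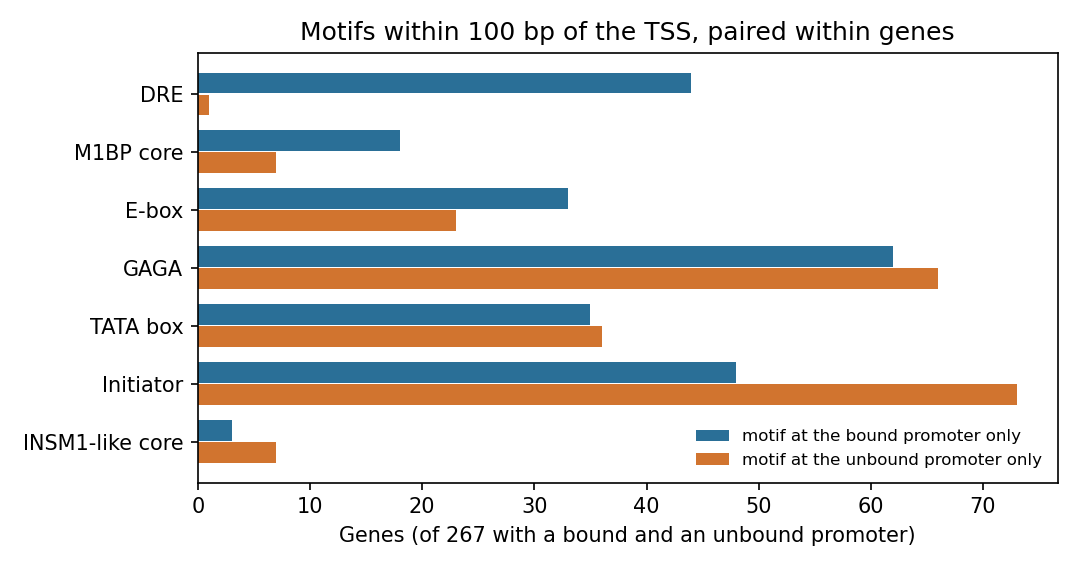
Number of genes, of 267 with a bound and an unbound promoter, in which a motif stood within 100 bp of the main TSS at the bound promoter only or at the unbound promoter only. The DRE stood at the bound promoter only in 44 genes and at the unbound one only in 1, while GAGA was near evenly split at 62 and 66.

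At the settings given, the other 6 motifs did not reach the threshold in these pairs, but for 2 of them the call depended on the setting. The core of the M1BP site, GGTCACAC, bound by an activator of broadly used promoters, stood at the bound promoter alone in 18 genes and at the unbound one alone in 7 (adjusted p 0.101, exact McNemar test). It passed the threshold in 7 other settings, with 71.9% to 91.7% of the genes having it at the bound promoter (adjusted p 0.00462 to 0.0468, exact McNemar test). The Initiator, TCAGTT or TCAGTC, stood at 48 bound and 73 unbound promoters (adjusted p 0.101). It passed in 3 other settings, with 35.8% to 38.9% at the bound promoter (adjusted p 0.00856 to 0.0369, exact McNemar test). It was found at 26.2% of bound and 35.6% of unbound promoters, and at 30.9% of all promoters. The E-box CAGCTG stood at 33 and 23 genes (adjusted p 0.400), the TATA box TATAAA at 35 and 36 (adjusted p 1), and GAGAG at 62 and 66 (adjusted p 0.923).

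The core CAGGGG of the site known for mammalian INSM1, a relative of nerfin-1, was rare on both sides, at 3 bound and 7 unbound promoters (adjusted p 0.481, exact McNemar test). GAGAG was common on both, at 36.3% of bound and 37.8% of unbound promoters, against 24.7% of all promoters. Over all promoters the M1BP core was found at 5.85%, the E-box at 13.3%, the TATA box at 27.2% and CAGGGG at 2.73%. A match is a description of the letters in the window and not evidence of a bound site.

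Signal differed between paired promoters in each replicate's own list, although the pairs were chosen by the pooled list that holds the same reads, so these values are a description. In replicate 1 the bound promoters had a median of 73.7, and the partners with a call had a median of 22.7. The bound one was higher in 225 of 231 pairs with both called. In replicate 2 the medians were 54.9 and 18.2, and the bound one was higher in 192 of 196 pairs. Most unbound promoters carried weak calls in the relaxed lists. Of these promoters, 375 of 462 had a relaxed call, with a median of 36.9 and a 90th percentile of 60.6, against 122.7 at bound promoters.

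Bound promoters started more annotated transcripts than their unbound partners, by a median of 2 against 1. They had more in 139 genes, fewer in 64 and equally many in 64. The share with more was 68.5% of the untied genes (61.8 to 74.5, two-sided exact sign test, p 1.50e-07). Where the bound promoter was the downstream one, a split added after seeing the data, it was 35 of 62 genes (56.5%, p 0.374 by the exact sign test), so the call was lost there. Position and transcript number move together in these genes. The polypyrimidine-tract protein gene heph had its peak (260.5 pooled, 147.1 and 119.2) at promoter 3 of 7, which starts 14 transcripts, more than any other promoter of that gene. The opposite case was sgg, the fly GSK3 kinase gene, named after its values were seen. Its peak (159.9 pooled, 89.9 and 63.7) lay at promoter 6 of 8, with 1 transcript, and its first promoter, with 7 transcripts, had a relaxed signal of 60.7.

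In 20 genes members lay at 2 or more promoters, and in 9 genes members held every promoter. Another 19 genes had several members all at 1 promoter. Among the 20, the strongest promoter was the most upstream bound one in 6, and it was the same promoter in both replicates in 19. The exception was ATP8A, which encodes a phospholipid flippase. Its promoters had 123 and 46.9 in replicate 1 but 31.4 and 33.4 in replicate 2.

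The gene with most bound promoters was milt, with 3 of 4. Along the gene they had 260, 98.9 and 819.5 in the pooled list, 134.5, 63.0 and 482.2 in replicate 1 and 113.8, 35.5 and 326.4 in replicate 2. In kug the second promoter had 667.1 and the first 90.5, with 412 and 62.0 in replicate 1 and 251.9 and 33.0 in replicate 2. The downstream promoter was thus the stronger one in both genes and in both replicates.

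Of the other genes with members at several promoters, Gp150 went the other way, with 499.9 at its first promoter and 85.5 at its second, 590 bp away. In Stat92E, the transcription factor of the JAK/STAT pathway, the second promoter had 290.7 and the first 84.6. In jigr1 promoter 4 had 254.5 and promoter 3 had 145.1. In raskol, which encodes a Ras GTPase-activating protein, the promoters lie 28269 bp apart and had 80.8 upstream and 239.3 downstream.

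**Figure D4:**
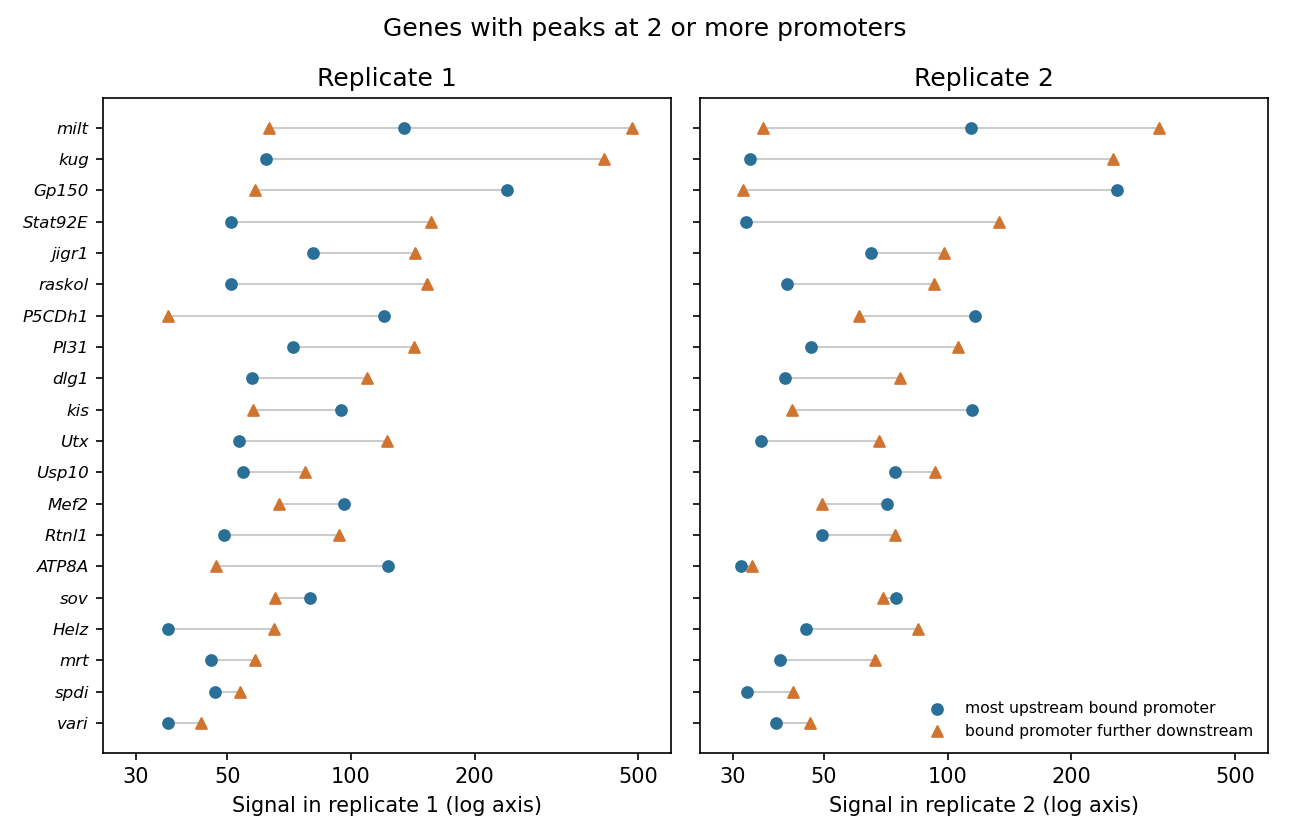
Signal (peak caller's value, log axis) at each bound promoter of the 20 genes with members at 2 or more promoters, in replicate 1 (left) and replicate 2 (right); circles are the most upstream bound promoter, triangles the bound promoters further downstream, and lines join a gene's promoters. The strongest promoter was the same in both replicates in 19 of the 20 genes, with ATP8A the exception.

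Set beside peaks at compact promoters, members held fewer DREs and more GAGA elements. Within 50 bp of the summit, on both strands, a DRE was found at 47 of 328 members (14.3%, 11.0 to 18.5) and 238 of 992 compact peaks (24.0%, 21.4 to 26.8). The odds ratio was 0.530 (0.377 to 0.746, two-sided Fisher's exact test, p adjusted over 7 motifs 0.00104). GAGAG was found at 46 members (14.02%, 10.7 to 18.2) and 71 compact peaks (7.16%, 5.71 to 8.93), an odds ratio of 2.12 (1.43 to 3.14, adjusted p 0.00104). Near TSSs of several genes the shares were 23.6% and 7.22%, close to those at compact promoters. Shares over all promoters of each kind of gene, bound or not, are not given for these windows. Whether the differences belong to bound promoters or to the kinds of gene was not tested. In the wider windows of 100 bp to each side of the main TSS, all annotated promoters held a DRE in 6.60% and GAGAG in 24.7%. In the pairs above, GAGAG was near evenly split between bound and unbound promoters.

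Members with a DRE had a median signal of 172.9, and those without one 106.1. Among peaks above the median signal of the conservative list, 38 of 155 members held a DRE, and the odds ratio was 0.662 (adjusted p 0.172, Fisher's exact test). In the list of replicate 2 alone it was 0.639 (adjusted p 0.0867). The call was thus lost in both, and a change of the odds ratio with signal was not tested. The GAGA difference kept its call above the median signal (odds ratio 2.55, adjusted p 0.0248, Fisher's exact test), and members with GAGAG had a median signal of 104.1, against 116.9 without.

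**Figure D5:**
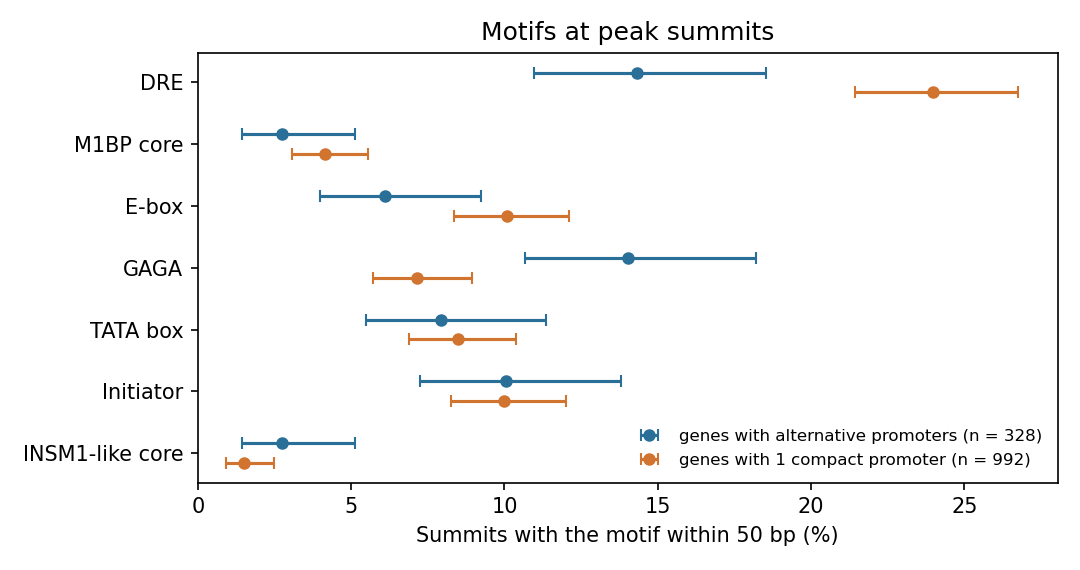
Percent of peak summits with each of 7 motifs within 50 bp, for the 328 peaks at genes with alternative promoters and the 992 at genes with 1 compact promoter. Points are percentages and whiskers 95% Wilson intervals; the intervals of the DRE (14.3% and 24.0%) and of GAGA (14.02% and 7.16%) do not overlap between the 2 kinds of gene.

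None of the remaining 5 motifs differed past the threshold between members and compact peaks. The E-box was found at 6.10% of members and 10.1% of compact peaks (odds ratio 0.579, 0.352 to 0.952, adjusted p 0.0810, Fisher's exact test). The M1BP core was at 2.74% and 4.13%, the TATA box at 7.93% and 8.47%, the Initiator at 10.1% and 9.98%, and CAGGGG at 2.74% and 1.51%. Between members at the most upstream and at other promoters, a comparison made after seeing the data, no motif passed either. The TATA box came nearest, at 22 of 206 upstream members (10.7%) and 4 of 119 others (3.36%), with an odds ratio of 3.44 (adjusted p 0.136, Fisher's exact test). The DRE was at 15.1% and 12.6% of these (adjusted p 0.826, Fisher's exact test).

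Member summits lay further from the TSS than compact ones. The median distance was 79.5 bp for members and 49 bp for compact peaks, and 192 of 328 members (58.5%) against 713 of 992 compact peaks (71.9%) lay within 100 bp. The odds ratio was 0.552 (0.426 to 0.716, two-sided Fisher's exact test, p 1.05e-05, with the limit of 100 bp chosen after seeing the data). On the downstream side of the TSS lay 29.0% of members and 31.0% of compact summits. At most upstream promoters the members' median distance was 76.5 bp, and at the others it was 89 bp.

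Members were found in both replicates' thresholded lists less often than compact peaks, a call that did not hold in every setting. Of the 328 members, 233 (71.0%) overlapped a thresholded peak of replicate 1 and 185 (56.4%) one of replicate 2, while 163 (49.7%) overlapped both and 73 neither. Of 992 compact peaks, 567 (57.2%) overlapped both. The odds ratio was 0.741 (0.577 to 0.951, two-sided Fisher's exact test, p 0.0210). The call was lost above the median signal (0.846, p 0.576 by Fisher's exact test), with a span over 2000 bp (0.748, p 0.0506) and with a stricter overlap (0.784, p 0.0646). Members at the most upstream promoter were in both lists in 112 of 206 cases (54.4%, median signal 118.4) and those at other promoters in 48 of 119 (40.3%, median signal 102.7).

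By chromosome arm, X held 87 members (26.5%) and 195 compact peaks (19.7%), an odds ratio of 1.48 (1.10 to 1.97, adjusted p 0.0308, Fisher's exact test). Arm 3R held 50 members (15.2%) and 220 compact peaks (22.2%), an odds ratio of 0.631 (0.451 to 0.883, adjusted p 0.0308). The call for X was lost in 5 of 7 other settings (adjusted p 0.0533 to 0.155, Fisher's exact test), the list of replicate 1 alone (0.0774) among them. The call for 3R was also lost in 5 of 7 (0.0869 to 0.274), including the lists of replicate 1 alone (0.0869) and replicate 2 alone (0.274). Of the genes with alternative promoters that could have been called, 75 of 325 on X (23.1%) and 47 of 341 on 3R (13.8%) had a member. The arms 2L with 56 members, 2R with 73, 3L with 61 and 4 with 1 did not pass the threshold.

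By function, each of the 10 gene lists examined held at least 1 bound gene. The lists below were chosen with earlier results of these data known, and their shares are set beside the 18.0% over all genes with alternative promoters that could have been called and the median top signal of 129.6 over the 285 genes. No list was tested. Of 31 such genes for BTB, zinc finger and other transcription factors, 12 had a member (38.7%), with a median top signal of 106.7. The highest was CrebB, the fly CREB, with 363.4 pooled, 189.5 in replicate 1 and 160.3 in replicate 2. Stat92E followed with 290.7, and the corepressor gene gro with 184.2. The Hox genes abd-A, lab and Abd-B had 182.8, 81.5 and 68.8, and are named after their values were seen. Antp, Ubx and Dfd, Hox genes also on this list, had no member, and may not all be among the 31 genes.

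Among kinases and phosphatases 8 of 21 had a member (38.1%), with a median of 153.6. Casein kinase CkIalpha had 350.7, with 205.7 and 152.1 in the replicates, and the kinase gene Pak had 203.4. The start sites of CkIalpha were joined into 1 promoter here. Of small GTPases and their regulators 6 of 22 did (27.3%), with a median of 219.1, led by RhoGAPp190, raskol and RhoGAP19D, which had 235.3. For RNA-binding and translation it was 7 of 27 (25.9%), with a median of 144.9. The gene larp, for an RNA-binding protein of the La family, had 281.8, heph 260.5 and Atx2, the fly ataxin-2 gene, 244.3.

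Chromatin regulators had members at 4 of 13 genes (30.8%), with a median of 190.6. The Polycomb group gene ph-p had 265.9, with 149.9 and 111 in the replicates, the remodeller gene kis 194.2 and the histone demethylase gene Utx 187.1. Cytoskeletal genes had them at 6 of 19 (31.6%), with a median of 91.3. There milt stood far above jar, for myosin VI, with 110.8 and Moe, for moesin, with 91.8. Genes of adhesion, guidance and junctions had them at 5 of 17 (29.4%), led by kug, the scaffold gene dlg1 with 207.7 and the semaphorin gene Sema1a with 192.7. Membrane traffic had them at 2 of 3, the epsin gene lqf with 163 and the clathrin light chain gene Clc with 94.8.

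The lowest shares were those of ion channels and the synapse, with 1 of 14 genes (7.14%), and of ecdysone and nuclear receptors, with 1 of 11 (9.09%). The members were the potassium channel gene sei, with 108.7 pooled, 84.7 in replicate 1 and 37.6 in replicate 2, and the receptor gene Eip78C, with 101.4, 51.3 and 46.1. The peak at sei overlapped a thresholded peak in replicate 1 alone, and that at Eip78C in neither replicate. Both lay below the median top signal of all bound genes. With so few genes in each list these shares are counts of these genes and no more.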

How the data were processed

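Peak lists from ChIP-seq, with an anti-GFP antibody per the labels' description, on 2 biological replicates were used, on genome build dm6 per the labels. Signal, as deposited, is the value the peak caller gave each peak. How the authors scaled it, or set it against a control, is not stated in the labels or files, nor are the aligner and caller. The authors deposited a thresholded and a relaxed list for each replicate, and for both together a conservative list, used here, and a second thresholded list. The labels name a control experiment, which was not analysed here. Read depth is unknown from the lists.

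TSSs came from Ensembl release 115 and sequence from the Release 6 assembly, and overlap meant at least 1 bp in common. Differences between members and compact peaks were tested with Fisher's exact test, two-sided, and promoters within genes with two-sided exact McNemar and sign tests, at a threshold of 0.05, with Benjamini-Hochberg adjustment over the 7 motifs or 6 arms. Shares have Wilson intervals, and odds ratios have intervals on the log scale. The tests were checked on simulated data. Alternatives comprised 13 settings and 3 added after seeing the data. Members, lists, motifs and tests were chosen with earlier results of these data known.

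Genes were named by rule: the 12 strongest members, the 6 genes with members at most promoters, the 5 with the widest span and up to 3 from each of 10 lists, whose 402 symbols included 2 with no match in the annotation and 16 found by synonym. Genes beside a limit, exceptions and others are marked where named. Python 3.11.15, numpy 2.4.6, scipy 1.17.1 and biopython 1.88 were used. No sequence of arm 2R is printed, and some items that the rule would name are not reported here.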

Additional observations from a re-analysis of the deposited data

How the results depend on the processing

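Of 188 values recomputed under other settings, 141 kept their direction and their side of the threshold, 17 kept only the direction, 10 newly passed the threshold (the M1BP core in 7 and the Initiator in 3, between paired promoters) and 20 changed direction. The upstream share was past the threshold in every setting tried, from 69.0% in the second pooled list to 79.7% with summits within 250 bp, with 73.5% to 76.7% when a replicate was left out. Without replicate 1 the members numbered 190 in 169 genes, of which 162 were among the 285, and without replicate 2 they numbered 330 in 285 genes, of which 209 were. The second pooled list gave 415 members.

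The DRE odds ratio against compact promoters missed the threshold at 0.662 above the median signal and at 0.639 without replicate 1. Without replicate 2 it was 0.573, past the threshold. For replicate overlap the odds ratio missed the threshold at 0.748 with a span over 2000 bp, 0.846 above the median signal and 0.784 with a stricter overlap. With the bound promoter downstream, the DRE stood at the bound promoter in 100% and transcripts were more numerous there in 56.5%, both short of the threshold. The cause was not tested.

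Every change of direction concerned a motif comparison that missed the threshold as reported, though the M1BP core between paired promoters passed in 7 settings. Odds ratios against compact promoters moved to 0.971 for the Initiator with a span over 2000 bp and 0.916 without peaks that overlap a stronger one, where the TATA box had 1.02. Above the median signal they were 1.16 for the M1BP core, 1.26 for the TATA box and 0.576 for CAGGGG, which had 0.875 with 100 bp windows. With a replicate left out they ran from 0.843 to 1.52 for the M1BP core, 1.08 to 1.09 for the TATA box, 0.973 to 1.03 for the Initiator and 0.696 to 1.11 for CAGGGG. Between paired promoters, GAGAG favoured the bound one in 54.2% in the second pooled list, 50.9% with 250 bp windows, 52.6% in downstream pairs and 47.4% to 55.3% with a replicate left out. The TATA box did so in 54.4% with a span over 2000 bp and 50.8% with 250 bp windows, the E-box in 49.1% with those windows and the M1BP core in 20% of downstream pairs. Unknown depth and 2 replicates limit what weak calls can show.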
